A study of Mus musculus with 24 samples.

Results

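The 48 genes described here are ligands and receptors of axon guidance, chosen by gene family from the 54446 genes counted in each library: 5 ephrin-A and 3 ephrin-B ligands, 9 EphA and 5 EphB receptors, 3 Slit ligands and 4 Robo receptors, 2 netrins with 5 netrin receptors of the Dcc and Unc5 types, and 6 class 3 semaphorins with 2 neuropilins and 4 A plexins. The rule used no expression value. The study asked which genes depend on Tfap2b, an AP-2 transcription factor, in the embryonic mouse brain. Brains of 12 embryos at E14.5 (embryonic day, in midgestation) were each cut into the secondary prosencephalon (SP, the telencephalon and hypothalamus) and the diencephalon, midbrain and hindbrain (DMH), and bulk mRNA was sequenced from each piece, giving 24 libraries. Controls were Tfap2b+/+ littermates. Mutants were Tfap2b-/- embryos from Tfap2b+/- parents, in which a PGK-neo cassette interrupts an exon of Tfap2b in every cell of the body from conception. Each of the 8 groups of sex, region and genotype held 3 libraries, each from 1 embryo.

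Growing axons read attractive and repulsive cues through receptors on the growth cone. Ephrins are membrane-bound ligands that repel or attract axons carrying Eph receptors, with ephrin-A ligands binding mainly EphA and ephrin-B ligands mainly EphB receptors. Epha4 is a known exception that also binds ephrin-B ligands. Netrin-1 attracts axons through Dcc and repels them through Unc5 receptors, and Slit proteins repel axons through Robo1 and Robo2 once these have crossed the midline. Class 3 semaphorins are secreted repellents that bind neuropilins, which signal through A plexins. In the embryonic forebrain and hindbrain these families set tract position, midline crossing and boundaries between regions.

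Since Tfap2b encodes an AP-2 factor, the 250 bases before the RefSeq start sites of the members were searched on both strands for the AP-2 consensus GCCNNNGGC. RefSeq (GRCm38.p6) gave a promoter for 39 of the 48 members, and 9 of the 39 (23.1%) held a match, against 15.4% of the 27025 genes in the table. Members also had richer promoters in G and C (median 64.6% against 52.4% of bases), and over all genes promoters with the motif had more G and C than those without it (63.6% against 50.8%). The 9 members with a match were Efna3, Epha8, Epha10, Ephb2, Ephb6, Slit2, Unc5a, Sema3c and Plxna3. For 4 members the upstream stretch is given here, 5′ to 3′ on the strand of the gene, with each match in capitals: Epha8 and Epha10, the EphA receptors with the largest excess in DMH, Efnb2, the ligand with the largest excess in SP, and Efna3, the member that came closest to a call between genotypes. Epha8 held 2 matches, Epha10 and Efna3 held 1 each and Efnb2 held none. Efna3 has 2 RefSeq starts, and the stretch before the one with a match is shown.
Epha8 (chr4:136956817-136957066, minus strand): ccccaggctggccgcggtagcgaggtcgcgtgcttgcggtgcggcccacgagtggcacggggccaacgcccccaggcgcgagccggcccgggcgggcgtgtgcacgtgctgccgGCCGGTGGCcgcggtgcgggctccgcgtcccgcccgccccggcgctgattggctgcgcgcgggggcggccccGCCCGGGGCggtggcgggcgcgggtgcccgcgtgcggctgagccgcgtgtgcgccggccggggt
Epha10 (chr4:124881535-124881784, plus strand): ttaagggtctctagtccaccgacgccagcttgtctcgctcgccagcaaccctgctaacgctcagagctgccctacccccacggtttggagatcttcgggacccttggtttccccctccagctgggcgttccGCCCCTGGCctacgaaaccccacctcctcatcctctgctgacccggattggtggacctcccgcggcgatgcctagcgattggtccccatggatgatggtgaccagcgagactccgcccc
Efnb2 (chr8:8661243-8661492, minus strand): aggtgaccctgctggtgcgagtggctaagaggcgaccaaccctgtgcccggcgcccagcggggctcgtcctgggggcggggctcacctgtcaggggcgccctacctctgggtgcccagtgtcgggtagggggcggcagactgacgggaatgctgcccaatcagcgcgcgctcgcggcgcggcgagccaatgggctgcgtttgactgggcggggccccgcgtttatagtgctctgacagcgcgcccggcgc
Efna3 (chr3:89322940-89323189, minus strand): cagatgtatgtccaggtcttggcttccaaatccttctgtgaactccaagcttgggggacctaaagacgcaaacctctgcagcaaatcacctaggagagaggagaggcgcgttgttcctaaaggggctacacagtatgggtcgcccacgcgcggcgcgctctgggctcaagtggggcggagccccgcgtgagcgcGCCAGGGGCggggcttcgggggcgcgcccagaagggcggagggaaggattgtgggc
A match is a run of letters and not a measured binding site. Among called members with a promoter in the table, 2 of the 7 higher in DMH (Epha8 and Epha10) and 0 of the 7 lower in DMH held one. The genes lie at chr4:136929419-136956816, chr4:124880899-124917800, chr8:8617434-8661242 and chr3:89313899-89322965 in the GENCODE vM21 annotation of GRCm38, so that the Epha10 stretch, taken before the RefSeq start, lies inside the longer GENCODE gene and the Efna3 stretch ends inside its GENCODE gene.

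Gene counts per library ranged from 24.7 M to 66.8 M (median 32.1 M), so that 3 counts equalled 0.0449 to 0.121 CPM (counts per M gene counts of a library). Tfap2b itself ranged from 281 to 435 CPM in the 6 control DMH libraries and from 50.4 to 56.6 CPM in the 5 mutant ones (-2.85 ± 0.11 on the log2 scale, value ± SE, adjusted p = 2.48e-07 by edgeR), and it was under 5 CPM in SP of both genotypes. In the 22 libraries that leave out the embryo labelled female mutant 3, the 8 telencephalic markers summed to 1786 to 2878 CPM in SP and 102 to 302 CPM in DMH, and the 10 markers of diencephalon, midbrain and rostral hindbrain to 70.7 to 237 CPM in SP and 922 to 2009 CPM in DMH. Some features of the libraries touch the results below. The embryo labelled female mutant 3 was left out of every fit except those named as including it. Its DMH library held 861 CPM of skeletal muscle and 1783 CPM of cartilage markers, against at most 9.87 and 88.9 CPM in other DMH libraries. The 15 caudal Hox genes mark the caudal hindbrain and neural tissue caudal to it. They summed to 0.105 to 0.405 CPM in 4 DMH libraries (female control 1, female mutants 1 and 2, male mutant 2) and to 241 to 451 CPM in the other 7. The embryo labelled female control 2 carried Y-linked transcripts at 122 to 133 CPM, near the male libraries (125 to 194 CPM). Its Xist, the RNA of the inactive X chromosome, was at 0.0341 to 0.0907 CPM, against 174 to 914 CPM in other libraries labelled female. This embryo thus read as male by both measures. It kept its label here, so that the female comparisons and the tests between sexes count it as a female control.

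Among the members, 46 of 48 exceeded 1 CPM on average in controls of both regions, and 21 exceeded 100 CPM in at least 1 region. The exceptions were Epha1 and Epha10, and Epha1 alone fell to 3 counts or fewer in any library, with 0 counts in 1. Levels of different genes are compared per kb of exonic length. In SP controls the 3 ephrin-B ligands stood first: Efnb1 at 68.7 ± 11.3 CPM per kb (mean ± SD, n = 6), Efnb2 at 59.1 ± 4.39 and Efnb3 at 47.4 ± 4.41, where the first pair overlapped within 1 SD and Efnb3 lay below both. Epha4 followed at 47.2 ± 2.02 and did not differ from Efnb3 beyond the spread, and Plxna2 came next at 35.4 ± 6.92. In DMH controls Efnb3 led at 78.3 ± 9.20 CPM per kb, followed by Plxna1 at 47.3 ± 2.63, Ephb2 at 33.8 ± 3.69, Robo1 at 29.7 ± 2.06 and Ephb1 at 29.3 ± 2.37 in that order. The last 3 overlapped within 1 SD. Epha1 stood at 0.0901 ± 0.0288 CPM per kb in SP and 0.0760 ± 0.0250 in DMH.

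**Figure D1:**
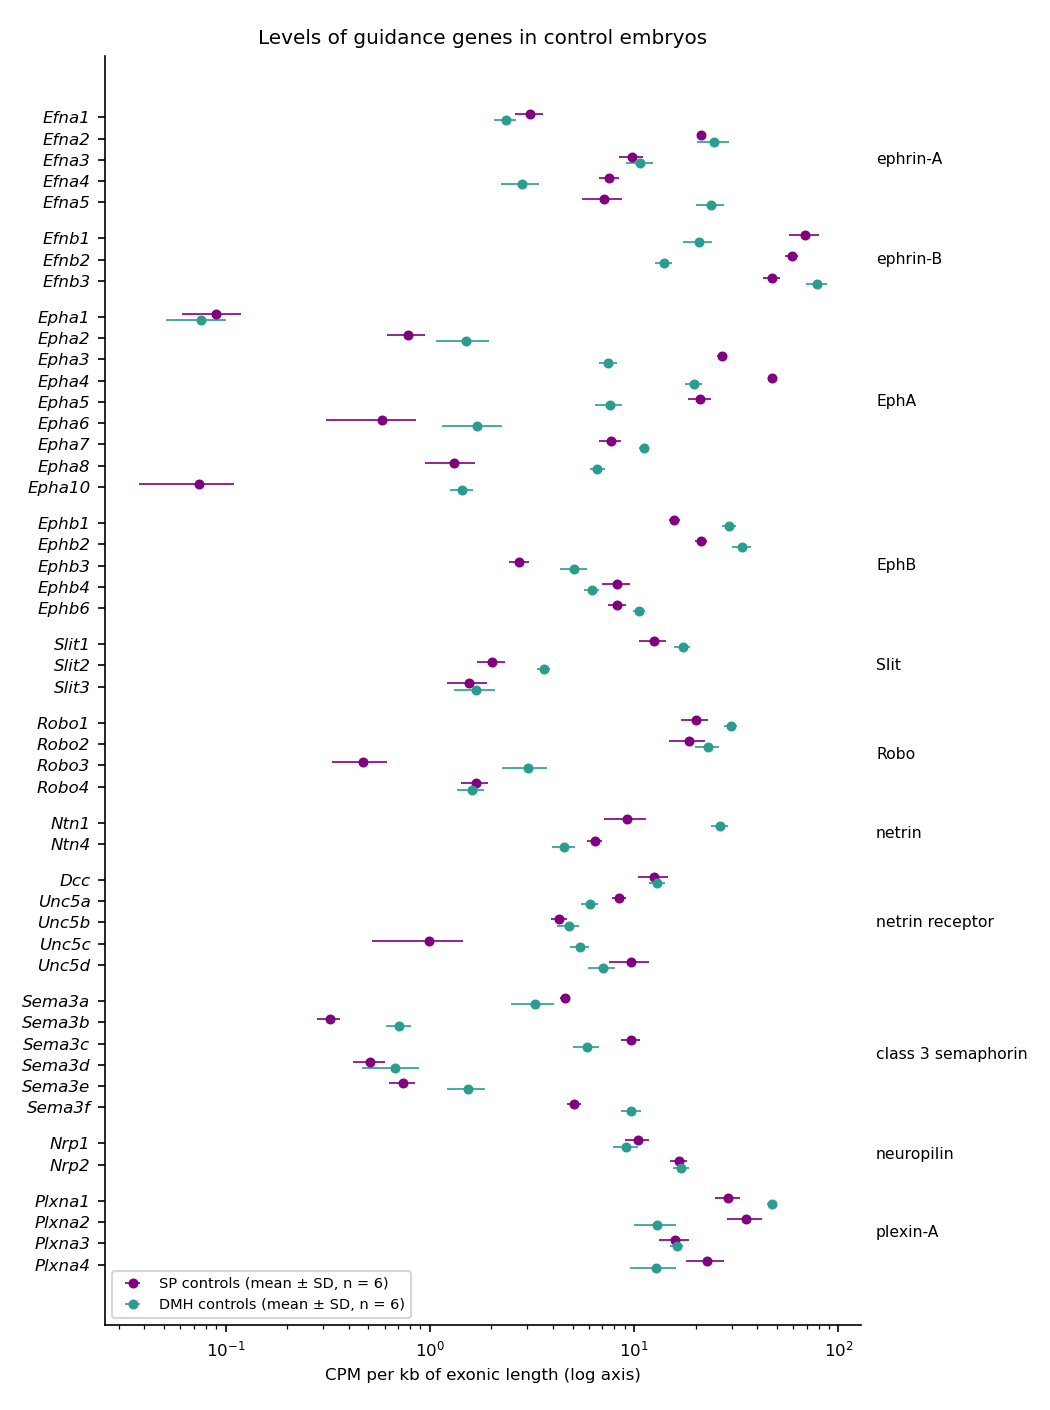
Levels of the 48 members in control embryos, as CPM per kb of exonic length on a log axis (points are means, bars are SD, n = 6 embryos; purple SP, green DMH). Efnb3 lay at the high end and Epha1 at the low end in both regions.

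The first comparison asked how the members differ between the 2 regions of the same brain, in the 6 control embryos, with embryo as a block. A call needed a false discovery rate below 0.05 and a log2 fold change beyond 1 in either direction. Of the 48 members, 9 were higher and 7 lower in DMH, 33.3% of the list, where 9.87% of the 16618 genes tested were called higher and 5.05% lower. The median absolute log2 fold change was 0.71 over the members and 0.34 over all genes tested. Another 25 members (52.1%, against 54.6% of all genes tested) passed the false discovery rate with smaller differences, 16 higher and 9 lower in DMH. With the called members, 85.4% of the list passed it, against 69.5% of all genes tested. The 7 members that did not pass it were Efna3, Epha1, Slit3, Robo4, Dcc, Nrp2 and Plxna3. The 6 SP and 6 DMH levels did not overlap for 30 members (62.5%), against 40.9% of all genes tested. In 37 members (77.1%) the difference had 1 direction in all 6 embryos, against 62.4% of all genes tested. The pieces also differed in the RNA of other markers: the 5 neuron markers summed to 3426 to 4396 CPM in SP and 4982 to 5582 CPM in DMH, and the 10 markers of meninges and mesenchyme to 158 to 729 CPM and 744 to 1271 CPM, with every one of these markers detected in every library. The part of these differences in the results below was not tested. In bulk tissue, fewer cells of a type and less RNA per cell cannot be told apart.

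**Figure D2:**
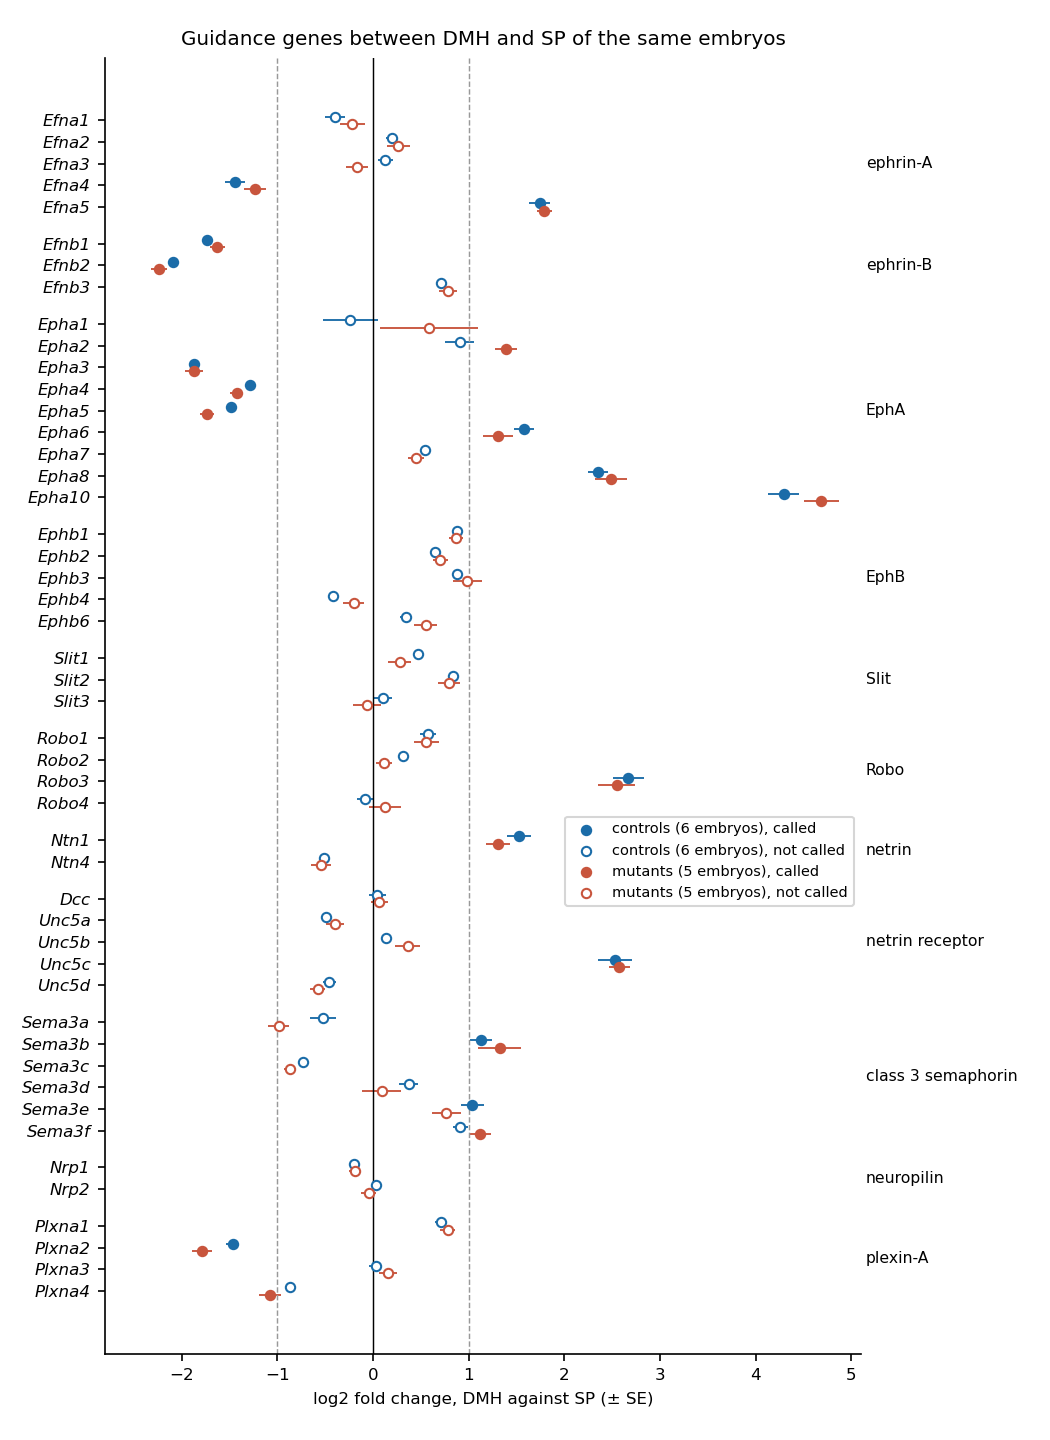
Log2 fold changes between DMH and SP (± SE) for the 48 members by family, in 6 control embryos (blue) and 5 mutant embryos (red), with embryo as a block. Filled points were called at the threshold marked by the dashed lines at -1 and 1, with 9 members to the right and 7 to the left in controls.

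Ephrin ligands divided by region. Efnb2, a ligand of EphB receptors and of Epha4, measured 373, 401 and 454 CPM in SP controls (lowest, median and highest of 6) and 80.9, 95.4 and 109.5 CPM in DMH controls. Every SP library was thus more than 3 times above every DMH library, and the log2 fold change was -2.09 ± 0.05 (edgeR adjusted p = 5.85e-11). Efnb1, its close relative encoded on the X chromosome, measured 172, 248 and 278 CPM in SP and 55.7, 72.3 and 89.1 CPM in DMH, a log2 fold change of -1.74 ± 0.05 (adjusted p = 4.87e-10). The third ephrin-B ligand, Efnb3, known as a midline barrier for corticospinal axons, went the other way by less than the threshold (0.72 ± 0.05, adjusted p = 1.81e-07). Of the GPI-anchored ephrin-A ligands, Efna5, which patterns retinal and thalamic projections, was higher in DMH, with 19.01, 29.2 and 38.3 CPM in SP and 80.5, 92.95 and 125 CPM in DMH (log2 fold change 1.74 ± 0.11, adjusted p = 9.45e-07). Efna4 was lower in DMH. It measured 10.02, 12.5 and 13.8 CPM in SP and 3.05, 4.42 and 5.78 CPM in DMH, a log2 fold change of -1.44 ± 0.10 (adjusted p = 2.19e-07). Libraries of the 2 regions did not overlap for any of these 4 called ligands. Efna1 and Efna2 differed by log2 fold changes of -0.40 ± 0.11 and 0.20 ± 0.06, under the threshold. Efna3 did not pass the test (0.13 ± 0.08, edgeR adjusted p = 0.155).

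The EphA receptors held the widest range. Epha10, a receptor whose kinase domain lacks residues needed for catalysis, measured 0.255, 0.518 and 0.906 CPM in SP controls, where counts ran from 8 to 33, and 8.88, 10.3 and 12.1 CPM in DMH controls (log2 fold change 4.29 ± 0.16, adjusted p = 1.88e-09). This was the widest difference of all 48 members, and it rests on low SP counts. Epha8, expressed by the developing midbrain, measured 4.14, 5.91 and 9.09 CPM and 26.7, 31.5 and 34.05 CPM (2.35 ± 0.11, adjusted p = 1.92e-08). Epha6 measured 1.38, 2.79 and 5.55 CPM in SP and 4.53, 9.35 and 13.3 CPM in DMH (1.58 ± 0.10, adjusted p = 1.06e-07). It was the single called member whose SP and DMH control libraries overlapped, although all 6 embryos had more in DMH.

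Opposite to these, 3 EphA receptors were lower in DMH. Epha3 measured 214, 238 and 253 CPM in SP and 54.5, 67.03 and 71.3 CPM in DMH, a log2 fold change of -1.87 ± 0.06 (adjusted p = 5.32e-10). Epha5, a receptor of cortical and hippocampal axons, measured 299, 349.7 and 410.2 and 96.9, 128 and 153 CPM (-1.48 ± 0.04, adjusted p = 2.10e-10). Epha4, which responds to ligands of both classes, measured 354, 380.2 and 404 and 144, 153 and 186 CPM (-1.28 ± 0.05, adjusted p = 2.30e-09). Levels in the regions did not overlap for these 3 receptors. Epha2 and Epha7 were higher in DMH by less than the threshold (0.90 ± 0.15 and 0.54 ± 0.05), and Epha1 did not pass the test (-0.23 ± 0.29, adjusted p = 0.481).

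No EphB receptor was called, although all 5 passed the false discovery rate. Ephb1, Ephb2, Ephb3 and Ephb6 were higher in DMH, with log2 fold changes of 0.88 ± 0.05, 0.65 ± 0.06, 0.88 ± 0.05 and 0.34 ± 0.06. Ephb4, best known from veins, was lower (-0.42 ± 0.05). The ligands Efnb1 and Efnb2 were thus called lower in DMH and the receptors Ephb1, Ephb2 and Ephb3 were higher there by less than the threshold. Ephb6, like Epha10, encodes a receptor without kinase activity.

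**Figure D3:**
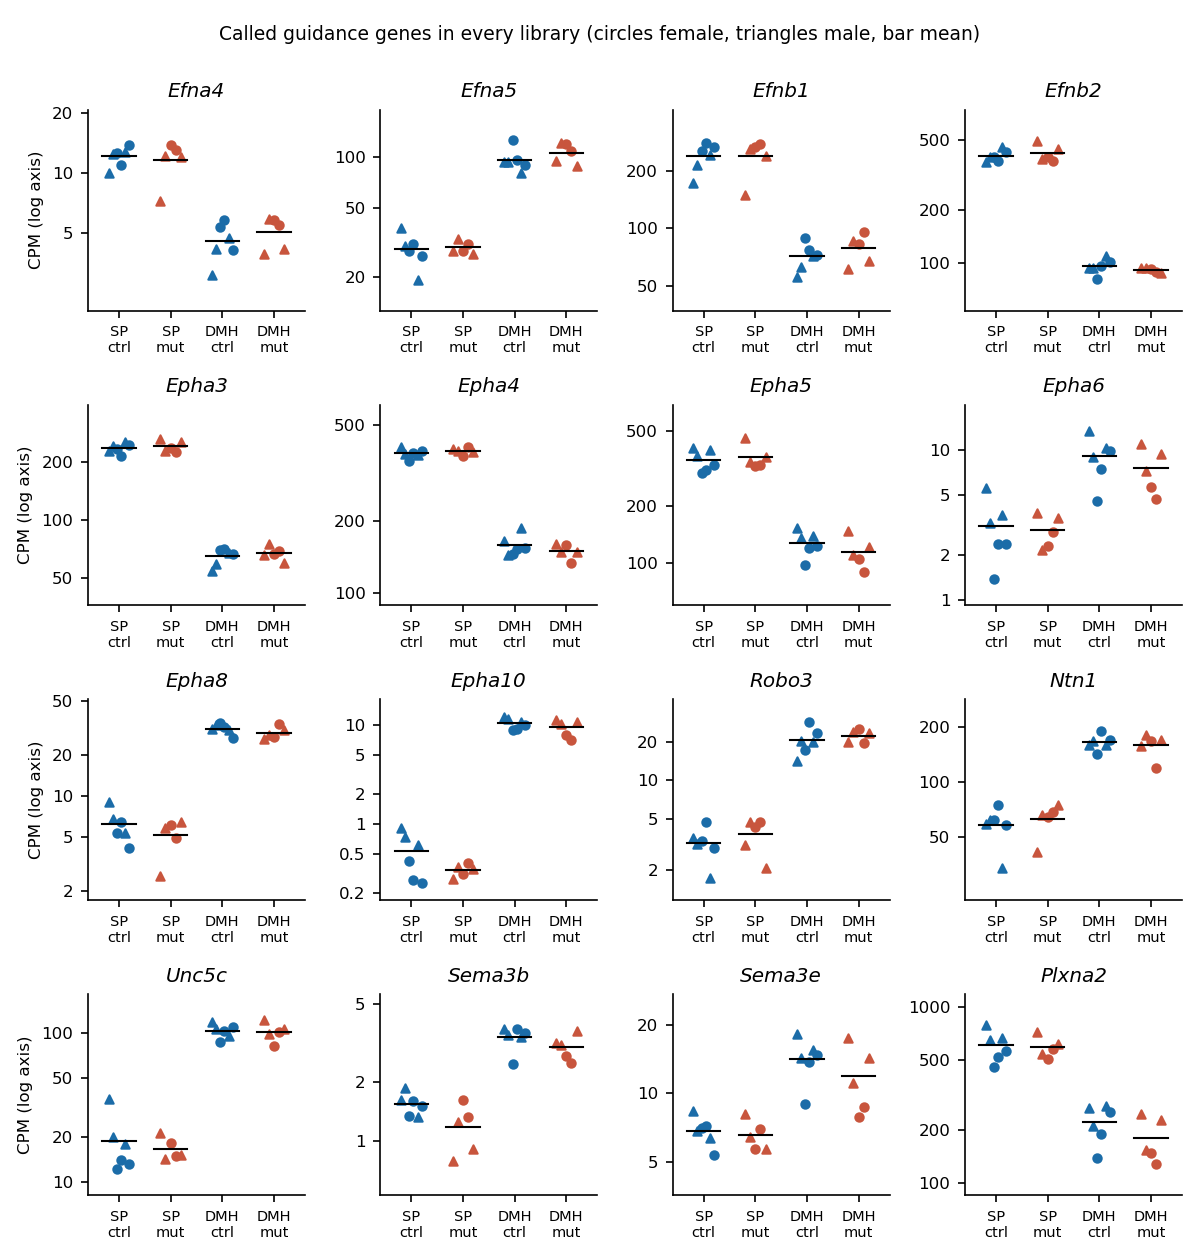
CPM on a log axis for the 16 members called between regions in controls, in each of the 22 libraries used (SP and DMH, controls blue, mutants red; circles female, triangles male; bars are group means). SP and DMH controls lay apart in every panel but Epha6.

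In the Slit and Robo family 1 gene of 7 was called. Robo3, the receptor that lets commissural axons of hindbrain and spinal cord reach the midline, measured 1.73, 3.27 and 4.74 CPM in SP controls and 14.03, 20.1 and 28.6 CPM in DMH controls. Every DMH library lay above every SP library (log2 fold change 2.67 ± 0.16, adjusted p = 3.70e-07). The repulsive receptors Robo1 and Robo2 were higher in DMH by 0.57 ± 0.08 and 0.32 ± 0.06, and Robo4, a receptor of endothelial cells, did not pass the test (-0.08 ± 0.09). Of the ligands, Slit1 and Slit2 were higher in DMH by 0.47 ± 0.05 and 0.84 ± 0.05, and Slit3 did not pass (0.10 ± 0.10, adjusted p = 0.358). The 8 endothelial markers summed to 192 to 317 CPM in SP and 305 to 349 CPM in DMH.

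Of the netrins and their receptors, 1 ligand and 1 receptor were called, both higher in DMH. Ntn1, the floor plate attractant, measured 33.8, 60.2 and 74.6 CPM in SP and 142, 164 and 189 CPM in DMH (log2 fold change 1.52 ± 0.13, adjusted p = 1.66e-05). Its repulsive receptor Unc5c measured 12.2, 15.9 and 36.2 CPM in SP and 86.9, 106 and 119 CPM in DMH (2.53 ± 0.18, adjusted p = 1.55e-05). The highest SP value of Unc5c came from male control 1, whose SP piece also held 237 CPM of the markers of diencephalon, midbrain and rostral hindbrain, against 70.7 to 126 CPM in the other SP libraries used. Dcc, the attractive receptor, had 125, 164 and 211 CPM in SP and 149, 174 and 191 CPM in DMH. Its ranges overlapped and its difference was 0.05 ± 0.09 (adjusted p = 0.675). The other receptors lay within 1 log2 unit, with Unc5a (-0.49 ± 0.06) and Unc5d (-0.46 ± 0.07) lower and Unc5b (0.14 ± 0.05) higher in DMH, and Ntn4 was lower (-0.51 ± 0.06).

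Of the secreted semaphorins, 2 were called. Sema3b measured 1.32, 1.56 and 1.86 CPM in SP and 2.46, 3.502 and 3.73 CPM in DMH (log2 fold change 1.13 ± 0.11, adjusted p = 2.92e-06). Sema3e, whose receptor Plxnd1 needs no neuropilin, measured 5.36, 6.94 and 8.37 CPM and 8.96, 14.51 and 18.2 CPM (1.04 ± 0.12, adjusted p = 1.67e-05). The call of Sema3e stood close to the threshold and was lost without male control 3 (log2 fold change 0.99) or female control 3 (0.95). Sema3f was higher in DMH by 0.91 ± 0.07 and Sema3d by 0.37 ± 0.10, while Sema3a (-0.52 ± 0.13) and Sema3c (-0.73 ± 0.05) were lower, all under the threshold. The neuropilins had small differences, with Nrp1 at -0.20 ± 0.05 (adjusted p = 0.00278) and Nrp2 at 0.03 ± 0.05 (adjusted p = 0.634). Plxna2, a signalling partner of neuropilins, measured 458, 606 and 789 CPM in SP and 140.0, 233 and 274 CPM in DMH (-1.47 ± 0.07, adjusted p = 1.03e-08). Plxna4 was lower in DMH by less than the threshold (-0.86 ± 0.06), Plxna1 was higher (0.71 ± 0.06) and Plxna3 did not pass the test (0.03 ± 0.07).

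The same comparison in the 5 mutant embryos, on libraries not used for controls, called 10 members higher and 8 lower in DMH (37.5% of the list), where 9.12% of the 16481 genes tested were called higher and 5.4% lower. Of the 16 members called in controls, 15 were called in the same direction in mutants, and this share was not counted over all genes. The exception was Sema3e (0.77 ± 0.15, adjusted p = 0.00342), and Epha2 (1.39 ± 0.11), Sema3f (1.12 ± 0.11) and Plxna4 (-1.08 ± 0.11) were called in mutants alone. In mutants Efnb2 measured 399, 381, 494, 387 and 445 CPM in SP (female mutants 1 and 2, then male mutants 1 to 3) and 92.5, 88.8, 94.5, 94.04 and 88.6 CPM in DMH (-2.24 ± 0.09, adjusted p = 7.04e-07). Epha10 measured 0.316, 0.402, 0.278, 0.365 and 0.348 CPM in SP and 7.94, 7.05, 11.2, 10.2 and 10.8 CPM in DMH (4.69 ± 0.18, adjusted p = 7.04e-07). The regions thus stayed apart in both genotypes for both genes. Without the 3 mutant embryos whose DMH piece had nearly no caudal Hox, 13 of 47 members (27.7%) were called higher and 7 (14.9%) lower, against 11.8% and 6.18% of the 16852 genes tested, in a fit on 2 embryos that left Plxna4 at -0.78. The call of Plxna4 was also lost without female mutant 2 (-0.99).

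Whether the region difference itself depended on genotype was tested as an interaction in 11 embryos, where a call needed a false discovery rate below 0.2 and a log2 fold change beyond 0.5 in either direction. No member was called by edgeR's quasi-likelihood test, its likelihood ratio test or DESeq2. The quasi-likelihood test called 0.00573% of 17465 genes (Tfap2b alone). Unadjusted p was under 0.05 for 4 of 48 members (8.33%), against 3.57% of all genes. The smallest belonged to Epha5, whose difference between DMH and SP was -1.48 ± 0.04 in controls and -1.74 ± 0.07 in mutants (difference -0.25 ± 0.07, adjusted p = 0.947). In the positive direction it belonged to Epha2 (difference 0.48 ± 0.20, adjusted p = 0.947). Of the DMH pieces, 3 of 5 mutants and 1 of 6 controls had nearly no caudal Hox. Epha5 measured 88.6 to 110 CPM in these 4 and 119 to 153 CPM in the other 7. Epha2 measured 9.29 to 12.4 CPM and 4.69 to 8.50 CPM. The part of this split in the interaction was not tested.

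The study's main question was the effect of Tfap2b loss. In SP no member was called in females, males or both sexes together, at the thresholds of the interaction test, by edgeR's quasi-likelihood test, its likelihood ratio test or DESeq2. In females 0.0181% of 16615 genes were called (3 genes, none of them a member), and 3 of 48 members (6.25%) had an unadjusted p under 0.05, against 2.58% of all genes. Among members higher in mutants the smallest p was that of Unc5c, with 12.2, 13.95 and 13.2 CPM in female SP controls and 18.1 and 14.96 CPM in mutants 1 and 2 (0.32 ± 0.10, adjusted p = 1.00). These groups did not overlap. In the genotype comparisons members were named for their smallest p, and the share of all genes with such separation was not counted. Female mutant 3, left out of the fit, had 32.8 CPM. Its SP piece held 273 CPM of the markers of diencephalon, midbrain and rostral hindbrain, against 70.7 to 237 CPM in the SP libraries used. The part of this in its Unc5c level was not tested. In the other direction Unc5d measured 73.1, 66.1 and 76.5 CPM in controls and 66.8 and 63.6 CPM in mutants, which overlapped (-0.15 ± 0.06, adjusted p = 1.00). The sign turned with female mutant 3 included (0.051).

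In male SP 0% of 16562 genes were called, and 3 of the 47 members tested (6.38%) had an unadjusted p under 0.05, against 3.65% of all genes. Epha1 fell under the filter. Epha10 measured 0.906, 0.735 and 0.610 CPM in the male controls and 0.278, 0.365 and 0.348 CPM in the male mutants. All 3 mutants lay below all 3 controls, at counts near the low end of the range, and the log2 fold change was -1.16 ± 0.31 (adjusted p = 0.967). Ntn4, the smallest p in the positive direction, measured 20.1, 25.3 and 23.1 CPM in controls and 26.9, 26.02 and 26.2 CPM in mutants (0.21 ± 0.13, adjusted p = 0.967). Each mutant lay above each control. Of the male mutants, number 1 held 2878 CPM of telencephalic markers, against 1786 to 2162 CPM in the other SP libraries used, and number 3 held 41.5 CPM of choroid plexus markers, against 206 to 547 CPM. Of the male controls, number 1 held 237 CPM of the markers of diencephalon, midbrain and rostral hindbrain, the most of the SP libraries used (median 94.1 CPM). The part of these marker differences in the values above was not tested.

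With both sexes in 1 fit, 0% of 16409 genes were called in SP and 2 of 48 members (4.17%) had an unadjusted p under 0.05, against 4.84% of all genes. These were Ntn4 (0.20 ± 0.07, adjusted p = 0.925) and Nrp1 (-0.14 ± 0.06, adjusted p = 0.925). Ntn4 ranged from 20.1 to 25.7 CPM in 6 controls and from 26.02 to 28.8 CPM in 5 mutants. The groups did not overlap, but Ntn4 was named for its small p in this fit, and the difference was far under the threshold. The genotype effect was also compared between the sexes as labelled, with female control 2 among the females. Here 0% of 17348 genes were called, with 3 of 48 members (6.25%) at an unadjusted p under 0.05, against 2.21% of all genes. The likelihood ratio test and DESeq2 called no member either. The smallest p was that of Epha10 (difference -1.34 ± 0.47, adjusted p = 1.00), whose male values are given above. In females controls measured 0.426, 0.273 and 0.255 CPM and mutants 0.316 and 0.402 CPM, which overlapped. In the other direction it was that of Efna2 (0.16 ± 0.14).

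In DMH, where Tfap2b is normally high, no member was called in females, males or both sexes by edgeR's quasi-likelihood test. In females 0.00596% of 16773 genes were called (Tfap2b alone), and 6 of 48 members (12.5%) had an unadjusted p under 0.05, against 8.90% of all genes. Efna3, a ligand of EphA receptors, measured 19.7, 23.6 and 26.8 CPM in the female controls and 15.8 and 14.9 CPM in mutants 1 and 2. Both mutants lay below all 3 controls, with the lowest control being number 1 (-0.60 ± 0.13, adjusted p = 0.551). Efna3 was called without a filter on low counts (adjusted p = 8.49e-05, with Slit3 and Sema3e), by the likelihood ratio test (0.0821) and by DESeq2 (0.0725), while the other alternatives that kept all 5 libraries gave 0.545 to 1.00. Female mutant 3 had 25.96 CPM, within the range of the controls. Both female mutants in this fit and female control 1 were among the 4 DMH libraries with nearly no caudal Hox. Without female control 1, 8 members were called (Epha2 higher; Efna3, Epha6, Slit3, Sema3a, Sema3e, Plxna2 and Plxna4 lower), in a fit that called 1117 of 16848 genes (6.63%) and in which controls with caudal Hox faced mutants without it. Ntn4 had the smallest p in the positive direction (0.18 ± 0.10, adjusted p = 0.570).

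In males 0.0236% of 16962 genes were called in DMH (4 genes), and 1 of 47 members (2.13%) had an unadjusted p under 0.05, against 2.89% of all genes. No member was called by the likelihood ratio test or DESeq2. The member with that p was Epha8, with 31.2, 33.2 and 30.2 CPM in controls and 26.3, 27.8 and 30.3 CPM in mutants (-0.19 ± 0.08, adjusted p = 0.870). The highest mutant lay just above the lowest control. Dcc measured 175, 149 and 157 CPM in controls and 187, 188 and 167 CPM in mutants (0.15 ± 0.08, adjusted p = 0.870), and these overlapped. The test of whether the effect differed between the sexes as labelled, with female control 2 among the females, called 0% of 17555 genes. No member was called by the 3 tools or had an unadjusted p under 0.05, against 2.00% of all genes. The member with the smallest p was Slit3 (difference 0.56 ± 0.31, adjusted p = 1.00).

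With both sexes together 0.0478% of 16744 genes were called in DMH (8 genes). No member was, by edgeR's 2 tests or DESeq2, while 13 of 48 (27.1%) had an unadjusted p under 0.05, against 15.2% of all genes. With female mutant 3 included this count was 2 of 48 (4.17%), against 2.89% of all genes, and Efna3 was at -0.27 ± 0.15. The smallest p without it was again that of Efna3 (-0.40 ± 0.12, adjusted p = 0.323), followed by Unc5d (-0.27 ± 0.09), Slit1 (-0.23 ± 0.08) and Epha10 (-0.20 ± 0.07), all with adjusted p = 0.323. Ntn4 led in the positive direction (0.20 ± 0.09). Male controls of Efna3 measured 30.6, 28.7 and 26.9 CPM and male mutants 26.6, 18.8 and 28.3 CPM. The lowest male value, that of mutant 2, was from a library with nearly no caudal Hox.

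**Figure D4:**
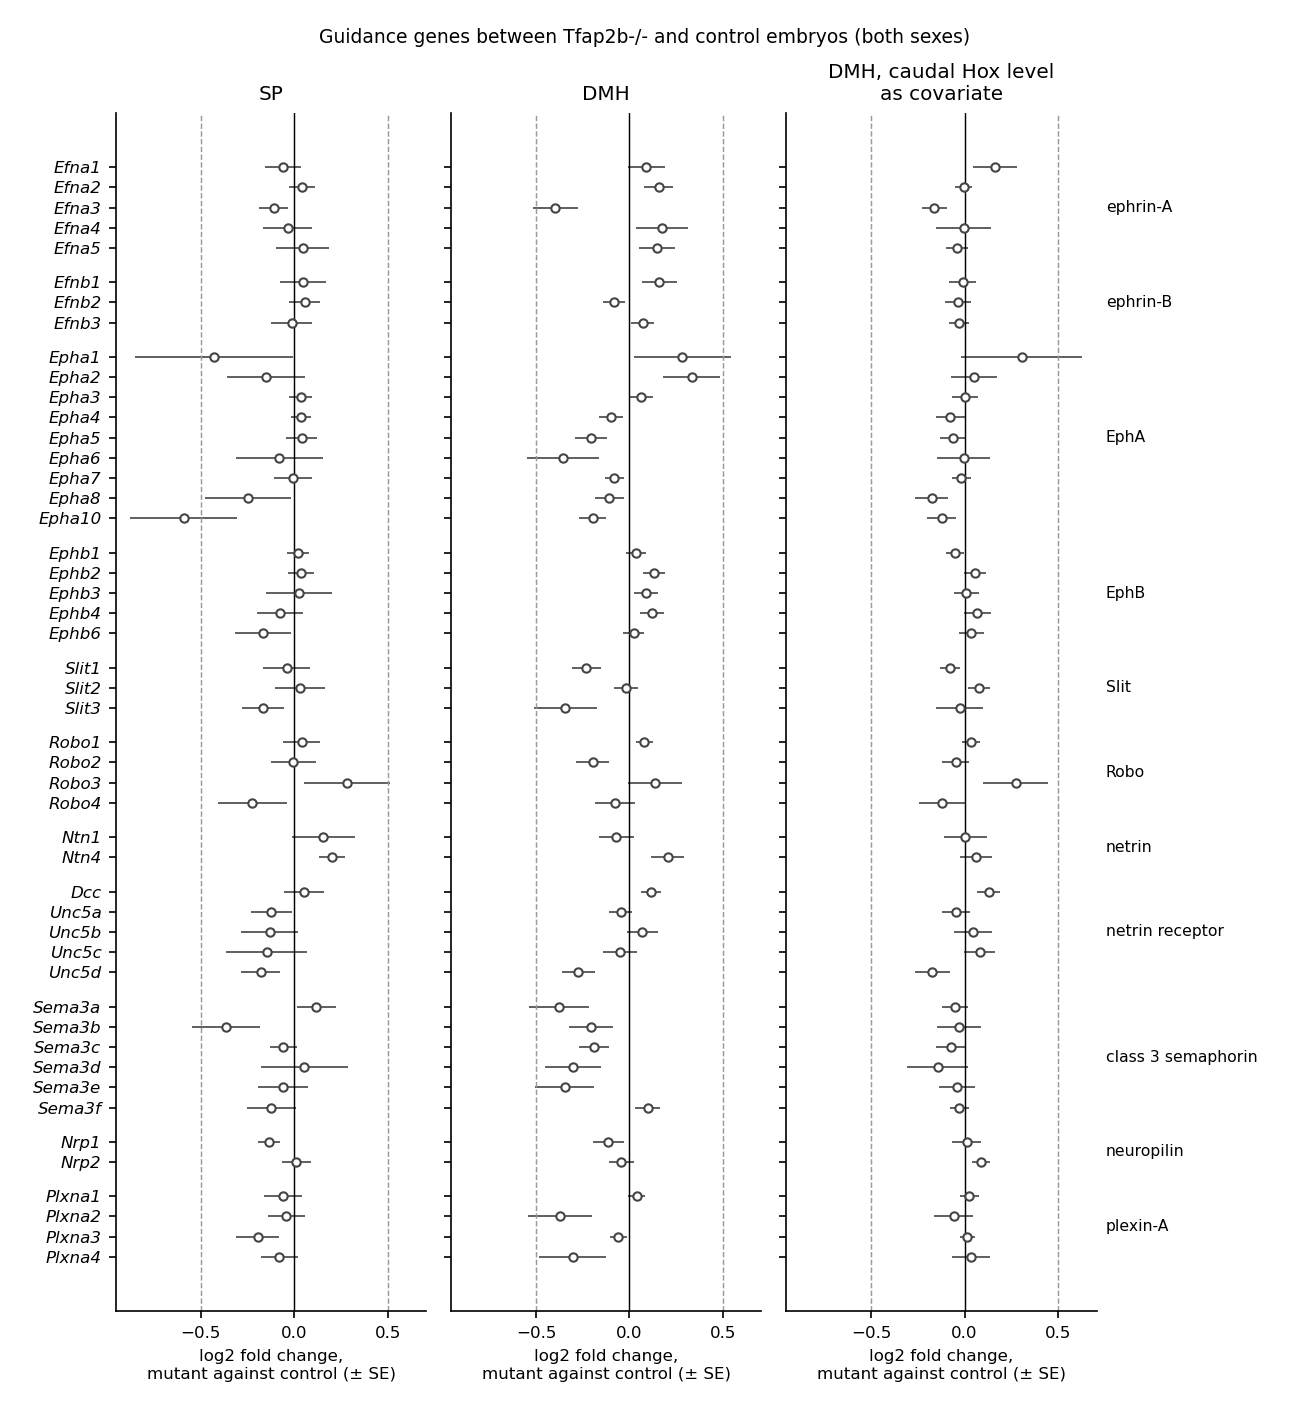
Log2 fold changes between 5 mutants and 6 controls (± SE, both sexes, sex as a covariate) for the 48 members in SP, in DMH, and in DMH with the caudal Hox level as a covariate. Dashed lines mark the threshold of 0.5, and no member was called in any panel.

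Caudal Hox moved with these DMH values. Whether it has a part in them was not tested beyond the fits given here. The 4 libraries with nearly none of it held 3 of the 5 mutants and 1 of the 6 controls. They also held the most RNA of the 10 markers of diencephalon, midbrain and rostral hindbrain, at 1594 to 2009 CPM against 922 to 1290 CPM in the other 7. In all 4, 14 members (29.2%) lay below each of the other 7 libraries used, against 10.8% of all genes tested: Efna3, Epha5, Epha6, Epha7, Slit1, Slit3, Robo2, Sema3a, Sema3b, Sema3e, Nrp2, Plxna2, Plxna3 and Plxna4. Another 6 (12.5%) lay above each of the other 7, against 11.5%: Efna2, Efna5, Efnb1, Epha2, Ntn4 and Sema3f. These libraries were told apart by their Hox counts after the data were seen, so the counts are descriptions without a test.

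Semaphorin and plexin genes gave clear examples. Plxna4 measured 107 to 135 CPM in the 4 libraries and 165 to 246 CPM in the other 7, and Plxna2 measured 129 to 155 CPM and 191 to 274 CPM. Sema3a, the founding repellent of its class, measured 23.3 to 34.3 CPM and 42.5 to 56.6 CPM. Female control 1 sat with the low libraries for each of these 3 genes, and male mutants 1 and 3 sat with the high ones. In the other direction Efna5 measured 108 to 125 CPM in the 4 libraries and 80.5 to 96.1 CPM in the other 7, and Efna2 measured 58.8 to 70.4 CPM and 43.8 to 57.5 CPM.

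With the log2 caudal Hox level as a covariate, the DMH fit of both sexes had 1 member of 48 (2.08%) with an unadjusted p under 0.05, against 2.25% of all genes, and the median absolute log2 fold change was 0.05 in place of 0.12 over the members and 0.05 in place of 0.10 over all genes. That member was Efna3, at -0.16 ± 0.07 (adjusted p = 1.00). Plxna2, at -0.37 ± 0.17 without the covariate, was at -0.06 ± 0.10 with it, and Sema3a moved from -0.38 ± 0.16 to -0.05 ± 0.07. Without the 4 libraries, in 5 controls and 2 mutants, no member had an unadjusted p under 0.05 and Efna3 was at -0.09 ± 0.09. Dcc kept a similar value in all 3 fits, at 0.12 ± 0.05, 0.13 ± 0.06 and 0.12 ± 0.08, none of them called.

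**Figure D5:**
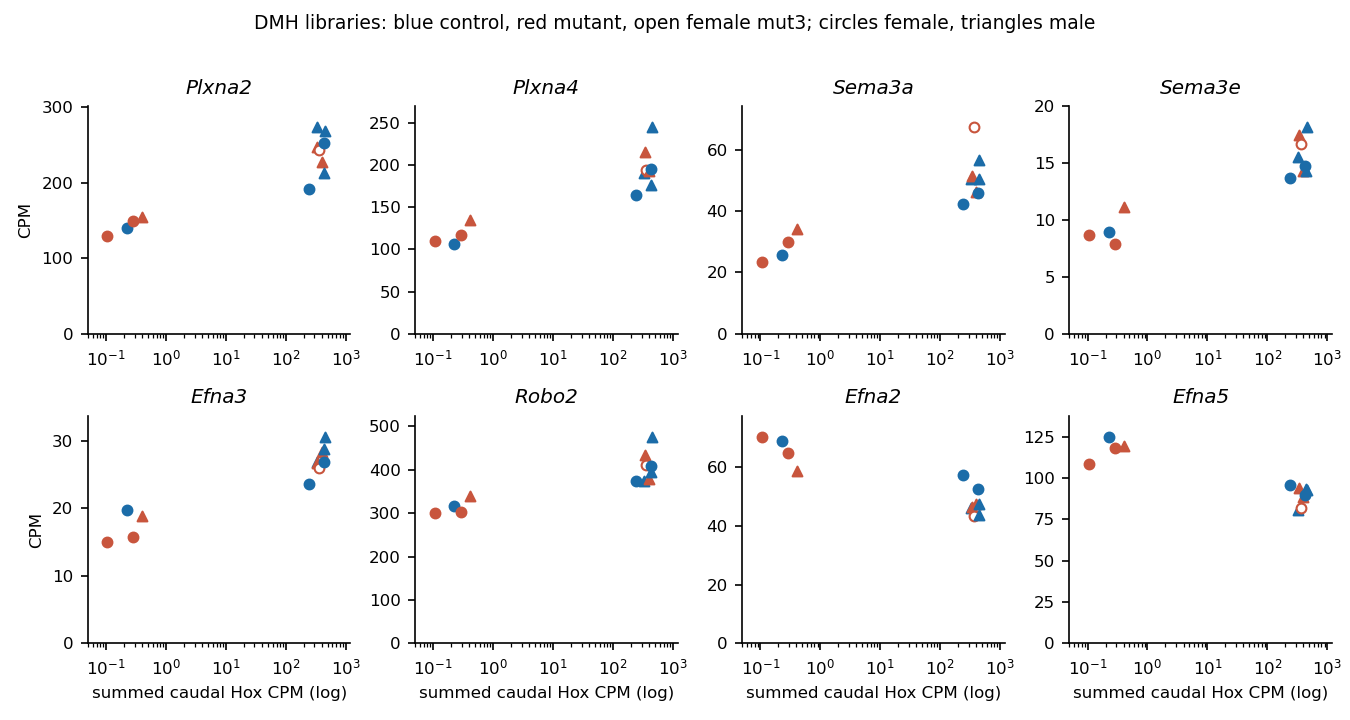
CPM of 8 members in the 12 DMH libraries against the summed CPM of the 15 caudal Hox genes (log axis; blue controls, red mutants, open circle female mutant 3; circles female, triangles male). The 4 libraries at the left, 1 control among them, lay lower for Plxna2, Plxna4, Sema3a, Sema3e, Efna3 and Robo2 and higher for Efna2 and Efna5.

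A wider list of 64 other guidance cues, receptors, adhesion molecules and effectors was read from the same fits. In controls 6 of the 62 tested were called higher and 3 lower in DMH, 14.52% of them, where 9.87% of all genes were called higher and 5.05% lower. The median absolute log2 fold change was 0.41, against 0.34 over all genes. The smallest p in each direction were those of the semaphorins Sema6a (1.06 ± 0.05) and Sema5a (-1.23 ± 0.05). Dscam, a further netrin receptor, was higher (1.12 ± 0.06). Plxnd1, the receptor of Sema3e, was lower (-1.35 ± 0.07), as was Cntn2, an adhesion molecule of axons (-1.33 ± 0.19). No gene of this list was called by edgeR's quasi-likelihood test in any genotype comparison or interaction, where 0 to 18 of the genes tested had an unadjusted p under 0.05, the most in DMH of both sexes (28.1%, against 15.2% of all genes).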

How the data were processed

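Poly(A) RNA of each brain piece was sequenced from strand-marking paired-end libraries. According to the submitters' processing notes, the authors used cutadapt 2.4, STAR 2.6.1d and edgeR with the GRCm38.p6 (mm10) build, and deposited STAR gene counts per library: whole fragments, not normalised, in an unstranded and 2 stranded columns. The annotation release is not given in the sources used here. GENCODE vM21 named 54409 of 54446 identifiers. The stranded column that fits these libraries was used here, the unstranded one as an alternative and 1 column not at all. Fragments on no gene (17.3% to 25.9%) stayed out of library sizes. Depth was 24.7 M to 66.8 M gene counts, and 3 counts were taken as the floor, which covers counting error only.

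Groups came from the labels. Counts were fitted with edgeR 4.0.16 (R 4.3.3, limma 3.58.1; TMM, filterByExpr, robust quasi-likelihood fit and test), with Benjamini-Hochberg adjustment over all genes tested. SE was derived from the fold change and the F statistic. Genotype calls used the study's thresholds (false discovery rate under 0.2, absolute log2 fold change over 0.5) and, as in the study, left out female mutant 3. Region calls used 0.05 and 1, with embryo as a block, since both pieces came from 1 embryo: deviations from group means correlated in all 12 pairs (0.134 to 0.651). CPM is scaled by TMM over 24 libraries. Libraries of a group came from separate embryos, and no 2 held the same counts within sampling noise. The code was tested on simulated data. Alternatives were DESeq2 1.42.0, the likelihood ratio test, other filters and scaling, thresholds, blocks, covariates and left-out libraries. Plots used matplotlib 3.10.9 under Python 3.11.15.

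The members and lists were chosen with earlier results of these data known. All members may be named. Per-library values are given for up to 3 members per family and direction with the smallest p among those called between regions in controls, and for the smallest p in each direction where a genotype comparison called none. Other genes of the pathway are given by the same rule of smallest p or counted. Ntn3 of the wider list is not analysed here.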

Additional observations from a re-analysis of the deposited data

Results flagged for a closer look

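Among the 192 combinations of member, region and genotype, 12 (6.25%) held a library far from the rest of its group by Dixon's criterion, where chance gives about 5%. They fell in 4 libraries. The SP library of male mutant 1 had 5: Efna4 at 7.22 CPM (12.0 to 13.7 in the other SP mutants used), Epha7 at 105 (66.8 to 73.3), Ephb6 at 15.98 (29.2 to 33.0), Sema3a at 94.4 (60.6 to 67.2) and Plxna3 at 81.0 (112 to 121). This library also held the most telencephalic marker RNA (2878 CPM). The DMH library of female control 1, with nearly no caudal Hox, had 4: Efna5 at 125 CPM (80.5 to 96.1 in the other DMH controls), Slit3 at 5.63 (10.7 to 12.2), Sema3b at 2.46 (3.40 to 3.73) and Plxna3 at 111 (127 to 135). The SP library of male control 1 had Unc5c at 36.2 CPM (12.2 to 19.96 in the other SP controls) and Plxna1 at 334 (233 to 265). The DMH library of male mutant 3 had Dcc at 167 CPM (187 to 192 in the other DMH mutants used).

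Of the members in the DMH library of female mutant 3, which entered no comparison as reported, Sema3b alone lay more than 1.5 times above the highest control, at 6.31 CPM against 2.46 to 3.73 CPM in the 6 DMH controls. That library held 3293 CPM of markers of meninges and mesenchyme, against at most 1271 CPM in the other DMH libraries.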

How the results depend on the processing

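Of the counts of called members, 222 values under alternatives kept their size within 1.5 times and 7 did not. In female DMH 3 members were called without a filter on low counts (535 genes in all), 1 by the likelihood ratio test (104 genes), 1 by DESeq2 (76 genes) and 0 to 8 with 1 library left out, the most without female control 1 (1117 genes), against 0 and 1 gene as reported. With a fold threshold of 0.5 the region comparison called 19 members higher (39.6%, against 19.98% of genes) and 11 lower (22.9%, against 14.1%) in controls and 19 higher in mutants (39.6%, against 17.9%). With 1 embryo left out it called 8 to 9 higher (9.58% to 10.6% of genes) and 7 lower (5.02% to 5.20%) in controls, and 10 to 11 higher (8.59% to 9.62%) and 7 to 9 lower (5.13% to 5.51%) in mutants. The values of single members were followed for those called between regions or with the smallest p in a direction between genotypes, each in its own comparison. Of these, 821 kept direction and call, 4 gained a call (Efna3 in female DMH, where the other members called without a filter or without female control 1 were not among those followed), 4 lost one (Sema3e in controls and Plxna4 in mutants, given above) and 3 changed sign, all with female mutant 3 included: Unc5d in female SP (0.051), Ntn4 in female DMH (-0.00895) and Slit3 in the test between sexes in DMH (-0.11). The cause of these changes was not tested. Replicate numbers were not taken to pair controls with mutants, since this needed all 10 same-numbered pairs to correlate over 0.1 and 7 did (-0.24 to 0.49). With the replicate number as a block 0 members were called in the 6 genotype comparisons, and Efna3 was at -0.48 in female DMH and -0.35 in DMH of both sexes. The region comparison without the embryo block called 9 higher and 7 lower members in controls (9.84% and 5.01% of genes) and 10 and 8 in mutants (8.97% and 5.41%).

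Depth limited Epha1 and, in SP, Epha10, with at most 33 counts a library in SP. Groups of 2 or 3 embryos limited the single-sex comparisons.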
